A study of Homo sapiens with 10 samples.

Results

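The genes described here are the 2 coactivators YAP1 and WWTR1 (which encodes TAZ), their DNA-binding partners TEAD1 to TEAD4, and 4 genes widely used as readouts of YAP activity, CYR61, CTGF, AMOTL2 and ANKRD1. They were taken by name, not by their values, and all 10 had a row among the 23585 genes of each table. The data were poly(A) RNA-seq of SH-SY5Y (SHSY5Y in the labels), a cloned human neuroblastoma cell line, which was cultured in serum-containing DMEM/F12. Cells had received either 100 nM of siRNA that targets LncND, a long non-coding RNA (3 libraries), or a scrambled siRNA (3 libraries), or else 50 nM of a mimic of miR-143-3p (2 libraries) or a scrambled miRNA (2 libraries), and were harvested after 72 h. The labels give no dose for the scrambled controls. The study's title concerns a lncRNA that sequesters microRNA and acts on Notch signalling, and the level of LncND itself was not analysed here. Whether the replicates came from separate cultures is not stated in the labels, and the p-values then reflect only the variation among libraries, which could be technical.

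In the Hippo pathway, a cascade of MST and LATS kinases phosphorylates YAP and TAZ and keeps them out of the nucleus. When the kinases are inactive, the coactivators enter the nucleus, bind TEAD factors and switch on genes such as CYR61 and CTGF. In neuroblastoma, YAP activity is known mainly from the mesenchymal type of tumour cell, whereas SH-SY5Y is of the noradrenergic, neuroblast-like type. The pathway is controlled largely through phosphorylation and localisation of its proteins, which mRNA levels do not measure.

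All values are FPKM, a fragment count divided by transcript length and by the mapped fragments of the library, and fold changes and tests are on the log2(FPKM + 1) scale. Depth, estimated from the steps between the lowest values, was 14.0 to 44.5 M fragments per library, so that a 2-kb transcript at 1 FPKM would hold 27.9 to 89.1 fragments. The FPKM of LncND siRNA replicate 1 summed to 1678230, against 428238 to 478709 in the other libraries. Without that library the same number of YAP, TEAD and target genes rose (1) and fell (4) with LncND siRNA. Of all 12588 genes tested in that run, 4626 rose and 3970 fell. Of 10 noradrenergic markers, 9 had a mean of at least 1 FPKM in every group, and their sum was 1557 to 2703 FPKM per library. The tenth, TH, the first enzyme of catecholamine synthesis, lay below 1 FPKM. The 7 endothelial markers summed to at most 0.575 FPKM. As in any bulk sample, fewer cells of a type and less RNA per cell cannot be told apart.

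Expression of YAP1, the coactivator, was low and was lower in both treatments. YAP1 (hg19 chr11:101981191-102104154) stood at 3.55, 3.47 and 3.73 FPKM in the scrambled siRNA libraries and at 1.77, 1.63 and 2.14 FPKM with LncND siRNA. It stood at 3.69 and 3.98 FPKM with scrambled miRNA and at 2.41 and 2.30 FPKM with the mimic. Every treated library was below every library of its own control. Mean YAP1 fell from 3.58 ± 0.133 to 1.85 ± 0.264 FPKM (SD, n = 3) with LncND siRNA, which is 1.94-fold lower, with a log2 fold change of -0.69 ± 0.07 (SE) and a limma adjusted p of 1.25e-05. With the mimic it fell from 3.84 ± 0.21 to 2.35 ± 0.0791 FPKM (SD, n = 2), which is 1.63-fold lower (log2 fold change -0.53 ± 0.08, limma adjusted p = 0.000219). A change of this size or larger, in either direction, was found in 8.5% of all tested genes with LncND siRNA and in 16.3% with the mimic. The decrease was not shown to differ between the treatments: the LncND siRNA effect minus the mimic effect was -0.16 ± 0.11 (SE, limma interaction term, adjusted p = 0.198). This difference passed the threshold without LncND siRNA replicate 3 (-0.24, adjusted p = 0.0402) and with quantile normalization (-0.34, adjusted p = 0.0112), and its adjusted p ranged from 0.0112 to 0.434 over all settings tried.

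The other coactivator gene, WWTR1 (hg19 chr3:149235021-149421060), lay below the filter of a mean of 1 FPKM and was not tested. It was listed at 0.364, 0.358 and 0.333 FPKM with scrambled siRNA and at 0.24, 0.218 and 0.29 FPKM with LncND siRNA, without overlap of the groups. In the miRNA table it stood at 0.252 and 0.292 FPKM with scrambled miRNA and at 0.305 and 0.247 FPKM with the mimic, and these groups overlapped. Fitted with no filter on low values, WWTR1 had a log2 fold change of -0.11 with LncND siRNA (limma adjusted p = 0.0222), but with a filter at a mean of 0.3 FPKM the same fold change did not pass (adjusted p = 0.0958). YAP1 made up 88.0% to 93.6% of the summed FPKM of the pair in all 10 libraries. An antisense gene, WWTR1-AS1, overlaps the locus and had a mean of 0.00352 FPKM in the siRNA table.

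**Figure D1:**
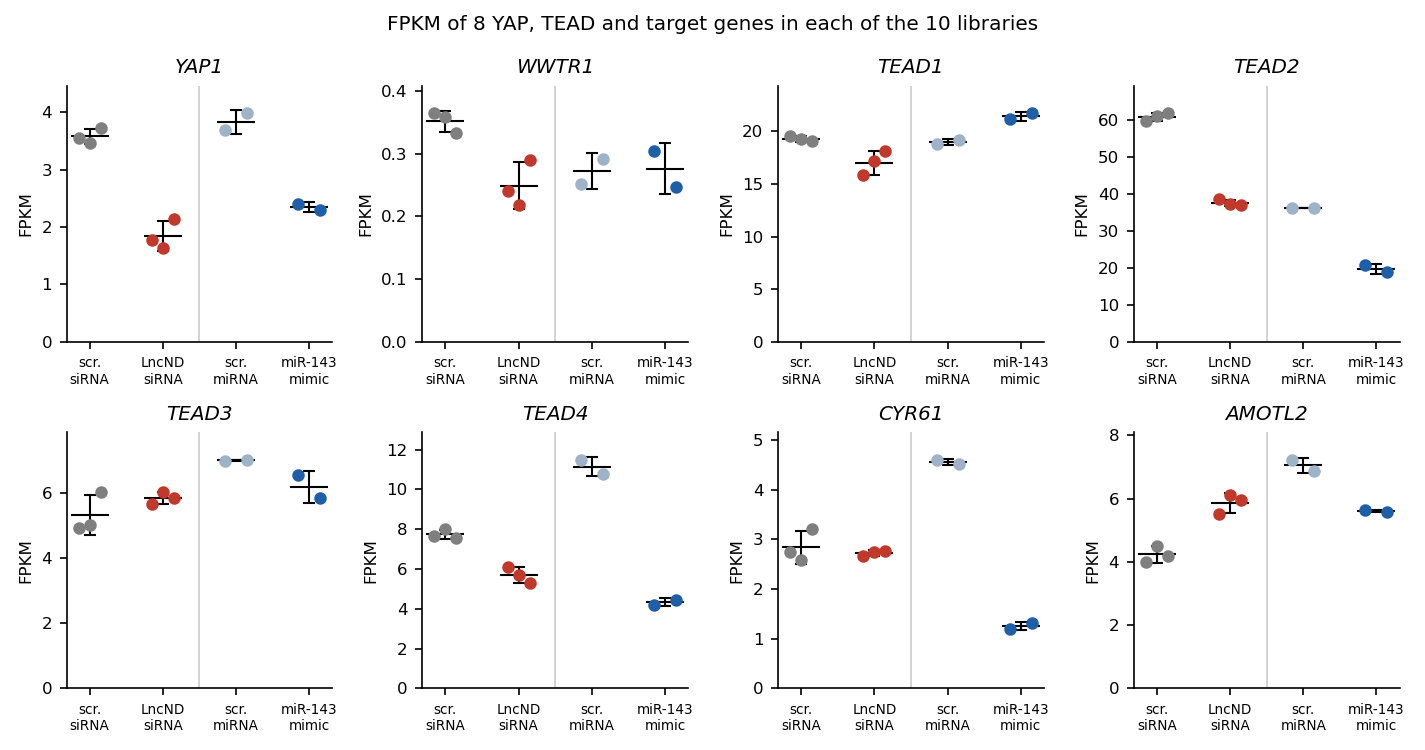
FPKM (vertical axes, each from 0) of the 8 genes with values above the level of a single fragment, by library. Points are libraries, horizontal bars are means and error bars are SD (n = 3 per siRNA group, n = 2 per miRNA group). The vertical grey line separates the siRNA table from the miRNA table. YAP1, TEAD2 and TEAD4 lay below their own controls in both treatments, while AMOTL2 lay above its controls with LncND siRNA and below them with the mimic.

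The TEAD factors bind DNA and have no strong activating function without a coactivator. Per length of transcript, TEAD2 was the highest of the 4 TEAD genes in 8 of the 10 libraries, and TEAD1 was the highest in the pair of mimic libraries. TEAD2 (hg19 chr19:49843852-49865714) stood at 59.7, 60.9 and 61.7 FPKM with scrambled siRNA and at 38.6, 37.2 and 37.1 FPKM with LncND siRNA. With scrambled miRNA it stood at 36.2 and 36.1 FPKM, and with the mimic at 20.7 and 18.8 FPKM. The treated libraries did not overlap with their own controls, but the LncND siRNA libraries were close to the scrambled miRNA libraries. TEAD2 fell 1.62-fold with LncND siRNA (log2 fold change -0.68 ± 0.04, limma adjusted p = 1.59e-07) and 1.83-fold with the mimic (-0.84 ± 0.05, adjusted p = 1.3e-06). The row of CD37, a leukocyte tetraspanin, overlaps the end of the TEAD2 row and had a mean of 0.525 FPKM in the siRNA table and 0.18 FPKM in the miRNA table.

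TEAD4 (hg19 chr12:3068477-3149842) was lower in both treatments and more so with the mimic. Its values were 7.66, 8.01 and 7.54 FPKM with scrambled siRNA against 6.09, 5.71 and 5.30 FPKM with LncND siRNA. They were 11.5 and 10.8 FPKM with scrambled miRNA against 4.18 and 4.46 FPKM with the mimic. No treated library reached the range of its controls. TEAD4 fell 1.36-fold with LncND siRNA (log2 fold change -0.39 ± 0.05, limma adjusted p = 9.7e-05) and 2.58-fold with the mimic (-1.19 ± 0.06, adjusted p = 4.7e-07). Only 1.6% of the genes tested with the mimic had a change of at least this size. The LncND siRNA effect minus the mimic effect was 0.81 ± 0.08 (limma interaction term, adjusted p = 2.34e-06).

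TEAD1 (hg19 chr11:12695968-12966284) changed by a small amount, in opposite directions. It stood at 19.6, 19.3 and 19.0 FPKM with scrambled siRNA and at 15.8, 17.2 and 18.1 FPKM with LncND siRNA. It stood at 18.8 and 19.2 FPKM with scrambled miRNA and at 21.2 and 21.7 FPKM with the mimic. The groups did not overlap, although LncND siRNA replicate 3 was within 1 FPKM of the lowest control. TEAD1 fell by 0.17 ± 0.05 on the log2 scale with LncND siRNA (limma adjusted p = 0.00965) and rose by 0.17 ± 0.05 with the mimic (adjusted p = 0.0124). Changes of this size are common here, being met or exceeded by 57.3% and 62.3% of the tested genes. The fall missed the threshold with no filter on low values (adjusted p = 0.0567, range over settings 0.00295 to 0.0567), and the rise missed it without scrambled miRNA replicate 1 (adjusted p = 0.0834, range 0.00175 to 0.0834).

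TEAD3 (hg19 chr6:35441373-35464861) did not pass the test in either treatment. It stood at 4.91, 4.995 and 6.03 FPKM with scrambled siRNA, at 5.64, 6.03 and 5.84 FPKM with LncND siRNA, at 6.98 and 7.01 FPKM with scrambled miRNA and at 6.53 and 5.83 FPKM with the mimic. The siRNA groups overlapped through scrambled siRNA replicate 3, and the miRNA groups did not overlap. The log2 fold change was 0.12 with LncND siRNA (95% interval -0.03 to 0.27, limma adjusted p = 0.138) and -0.16 ± 0.07 (SE) with the mimic (adjusted p = 0.0698). Leaving out a single library could change these calls. Without scrambled siRNA replicate 3 the LncND siRNA effect was 0.20 (adjusted p = 0.00938, range over settings 0.00938 to 0.394). Without mimic replicate 1 the mimic effect was -0.23 (adjusted p = 0.0257, range 0.0257 to 0.347). The mimic effect also passed with all libraries when a replicate block was fitted (limma adjusted p = 0.0495).

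Summed over the 4 genes, TEAD transcripts amounted to 91.8 to 94.4 FPKM with scrambled siRNA and 66.1 to 66.3 FPKM with LncND siRNA. They amounted to 73.2 to 73.5 FPKM with scrambled miRNA and 50.8 to 52.6 FPKM with the mimic. The 4 groups did not overlap. Most of the drop in each table was in TEAD2, whose share of the sum was 65.0% to 65.4% with scrambled siRNA, 55.9% to 58.3% with LncND siRNA, 49.3% to 49.4% with scrambled miRNA and 37.0% to 39.4% with the mimic. The share of TEAD1 was 20.2% to 21.3%, 23.9% to 27.3%, 25.6% to 26.3% and 40.2% to 42.8% in the same order. With LncND siRNA the levels of TEAD3 (5.84 ± 0.193 FPKM) and TEAD4 (5.70 ± 0.391 FPKM) overlapped (SD, n = 3), whereas TEAD4 was the higher of these in both control groups and the lower with the mimic.

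**Figure D2:**
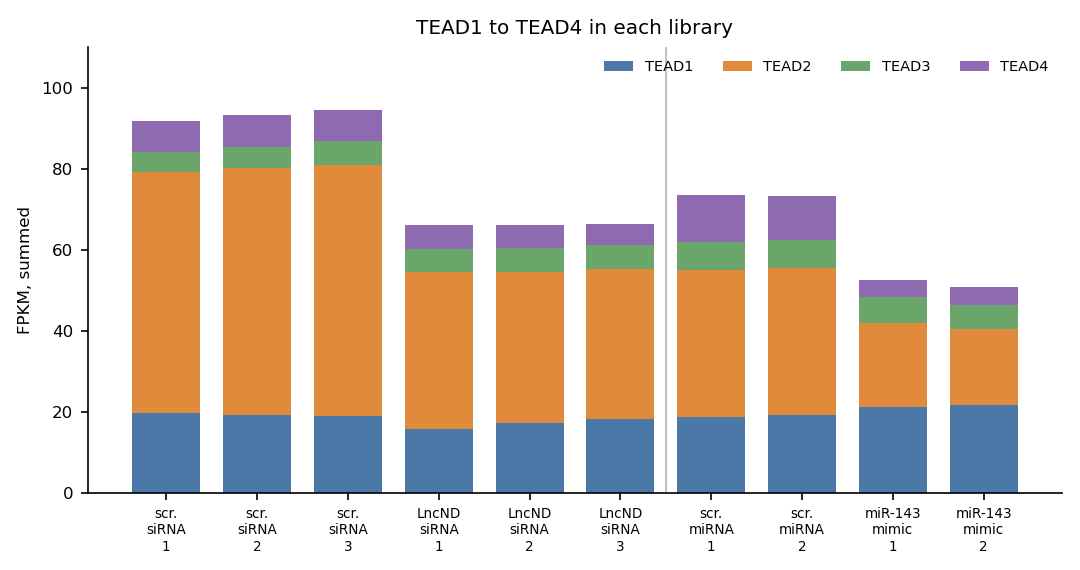
Summed FPKM (vertical axis) of TEAD1, TEAD2, TEAD3 and TEAD4 in each of the 10 libraries (horizontal axis), stacked. The grey line separates the siRNA table from the miRNA table. The orange TEAD2 segment is shorter in the treated libraries of each table, and in the mimic libraries TEAD1 and TEAD2 are of similar height.

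Of the 4 target genes, CYR61 and AMOTL2 were measured well enough to test, and CTGF and ANKRD1 were at or near the lowest value. CYR61 (also CCN1) and CTGF (CCN2) encode secreted matricellular proteins of the CCN family, AMOTL2 encodes an angiomotin-like scaffold that binds YAP, and ANKRD1 encodes an ankyrin-repeat protein of heart and other muscle. CYR61 (hg19 chr1:86046443-86049648) stood at 2.74, 2.58 and 3.22 FPKM with scrambled siRNA and at 2.66, 2.74 and 2.77 FPKM with LncND siRNA. With scrambled miRNA it stood at 4.60 and 4.51 FPKM and with the mimic at 1.204 and 1.315 FPKM. The LncND siRNA libraries lay inside the range of their controls, while both mimic libraries were far below theirs. With LncND siRNA the log2 fold change of CYR61 was -0.04 (95% interval -0.19 to 0.10, limma adjusted p = 0.583), although YAP1 fell in the same libraries. With the mimic CYR61 fell 3.62-fold, from 4.56 ± 0.0621 to 1.26 ± 0.0785 FPKM (SD, n = 2, log2 fold change -1.30 ± 0.08, limma adjusted p = 7.9e-07), a change met or exceeded by 1.2% of tested genes. The difference between these effects was 1.26 ± 0.10 (limma interaction term, adjusted p = 2.2e-07).

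AMOTL2 (hg19 chr3:134074189-134093406) changed in opposite directions. It stood at 3.999, 4.51 and 4.20 FPKM with scrambled siRNA and at 5.51, 6.11 and 5.97 FPKM with LncND siRNA. It stood at 7.22 and 6.89 FPKM with scrambled miRNA and at 5.62 and 5.59 FPKM with the mimic. All 3 LncND siRNA libraries were above their controls and both mimic libraries were below theirs. AMOTL2 rose 1.39-fold with LncND siRNA (log2 fold change 0.39 ± 0.06, limma adjusted p = 0.000124) and fell 1.26-fold with the mimic (-0.29 ± 0.06, adjusted p = 0.00279), and the effects differed by 0.68 ± 0.08 (limma interaction term, adjusted p = 1.13e-05). The ratio of AMOTL2 to CYR61 FPKM was 1.30 to 1.75 with scrambled siRNA, 2.07 to 2.23 with LncND siRNA, 1.53 to 1.57 with scrambled miRNA and 4.25 to 4.67 with the mimic, so within each table it was higher in every treated library.

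CTGF (hg19 chr6:132269316-132272518) was listed at 0.001 FPKM, the value that stands in the place of 0, in all 10 libraries. ANKRD1 (hg19 chr10:92671856-92681032) was listed at 0.001 FPKM in 8 libraries, at 0.0137 FPKM in scrambled siRNA replicate 1 and at 0.0169 FPKM in mimic replicate 1. A single fragment on a 2-kb transcript is worth 0.0112 to 0.0358 FPKM at these depths, so neither value can be told from a lone fragment. No fold is given for these genes. Of 267 genes from ribosomal, proteasomal and other families of use in every cell, 0 were listed at 0.001 FPKM in all 10 libraries and 11 were in at least 1, so this value in some libraries alone, as for ANKRD1, does not show that a gene is silent. The other CCN genes (NOV, WISP1, WISP2 and WISP3) were also low, with a highest group mean of 0.0602 FPKM in WISP3.

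TEAD factors recognise the motif GGAATG, read as CATTCC on the other strand. It was searched for on both strands in the 250 bases before each transcription start in RefSeq (build GRCh38.p14), where 7 of the 10 genes matched a promoter. The 3 windows below are of target genes with a match, written 5′ to 3′ along the gene's strand with the motif in capitals. They are shown because CTGF and ANKRD1, the targets at or near the lowest value, held more matches than AMOTL2, a target that changed. CYR61, TEAD1 and TEAD4 were not searched. The CTGF window is chr6:131951373-131951622, minus strand, with matches starting at -169, -104 and -95 from the start. The ANKRD1 window is chr10:90921088-90921337, minus strand, with matches at -220 and -128. The AMOTL2 window is chr3:134374448-134374697, minus strand, with a match at -69.
CTGF: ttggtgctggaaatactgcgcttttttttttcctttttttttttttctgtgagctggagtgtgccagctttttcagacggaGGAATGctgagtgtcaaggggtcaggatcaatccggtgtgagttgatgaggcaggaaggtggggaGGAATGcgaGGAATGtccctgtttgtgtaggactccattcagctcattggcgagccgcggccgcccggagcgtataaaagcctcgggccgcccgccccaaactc
ANKRD1: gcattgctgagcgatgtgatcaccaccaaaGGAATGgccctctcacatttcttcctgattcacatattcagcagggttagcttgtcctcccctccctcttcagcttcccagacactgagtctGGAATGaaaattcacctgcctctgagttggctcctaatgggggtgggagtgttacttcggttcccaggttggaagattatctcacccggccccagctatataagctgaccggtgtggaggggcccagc
AMOTL2: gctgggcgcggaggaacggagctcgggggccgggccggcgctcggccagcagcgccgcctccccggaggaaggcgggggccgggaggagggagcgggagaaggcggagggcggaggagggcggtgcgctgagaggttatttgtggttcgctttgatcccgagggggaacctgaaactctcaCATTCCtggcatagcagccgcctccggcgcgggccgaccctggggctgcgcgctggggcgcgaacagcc
YAP1 also held 1 match, at -162, and the other AMOTL2 window and those of WWTR1, TEAD2 and TEAD3 held none of these letters. Of 35116 RefSeq windows of the same length, 11.9% held at least 1 match, 0.94% at least 2 and 0.08% at least 3. The match is a description of the sequence and does not show binding.

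Set side by side, the regulators and the targets did not follow one another in the same way in the 2 tables. With LncND siRNA, 5 of the 7 tested genes passed the test, against 66.9% of all 12601 genes tested: 4 regulators fell (YAP1, TEAD1, TEAD2 and TEAD4, where 30.3% of all genes fell) and 1 target, AMOTL2, rose (36.6% of all genes rose). With the mimic, 6 of the 7 passed, against 63.3% of all 12558 genes tested: YAP1, TEAD2, TEAD4, CYR61 and AMOTL2 fell (38.6% of all genes) and TEAD1 rose (24.6%). In each comparison most tested genes were therefore called, with replicates that could be technical. The numbers of YAP, TEAD and target genes called are to be read against that. Calls of at least 1.5-fold were made for YAP1 and TEAD2 with LncND siRNA (2 of 7, against 12.3% of all genes) and for TEAD2, TEAD4 and CYR61 with the mimic (3 of 7, against 13.1%). YAP1 was 1.63-fold lower in FPKM with the mimic but is not among them, since the fold is read here on the log2(FPKM + 1) scale. The groups did not overlap for 5 of the 7 genes with LncND siRNA, against 70.9% of all genes, and for all 7 with the mimic, against 81.9%. The split of all calls with LncND siRNA, 4613 higher and 3818 lower, became 4257 and 4200 with median-ratio scaling and 4026 and 4658 with quantile normalization. The split with the mimic, 3094 higher and 4853 lower, became 3931 and 4052 with median-ratio scaling and 4145 and 3854 with quantile normalization. None of the called effects of these 7 genes changed sign under either scaling.

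**Figure D3:**
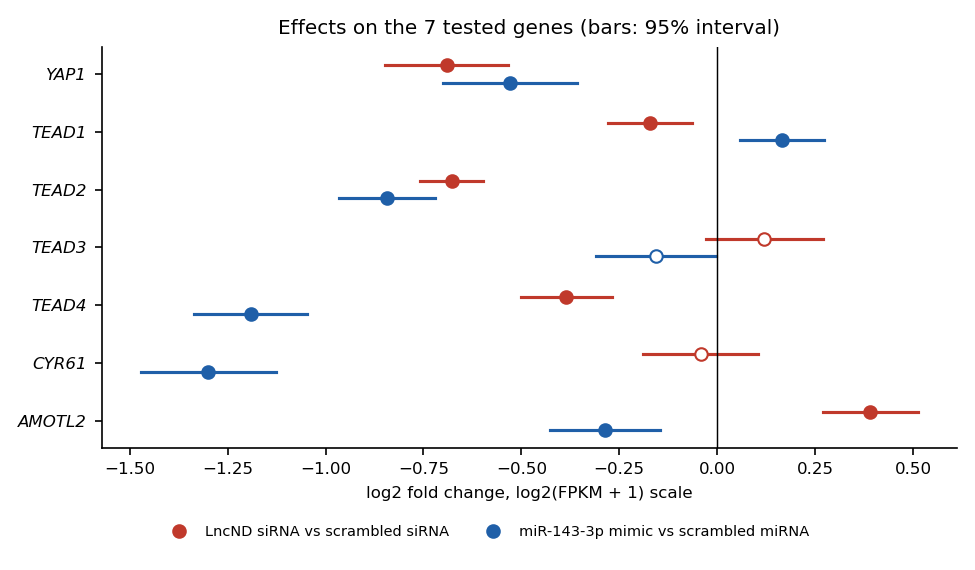
Log2 fold change on the log2(FPKM + 1) scale (horizontal axis) of the 7 tested genes (vertical axis) with LncND siRNA and with the miR-143-3p mimic. Bars are 95% intervals from limma, filled points have an adjusted p under 0.05 and open points do not. YAP1, TEAD2 and TEAD4 lie left of 0 in both treatments, AMOTL2 and TEAD1 lie on opposite sides of 0, and CYR61 lies near 0 with LncND siRNA and at -1.30 with the mimic.

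The mean log2(FPKM + 1) of the 6 regulators was 3.10 to 3.14 with scrambled siRNA and 2.78 to 2.83 with LncND siRNA, and 3.12 to 3.13 with scrambled miRNA and 2.68 to 2.73 with the mimic. It was thus lower in every treated library. The mean of CYR61 and AMOTL2 was 2.11 to 2.23 with scrambled siRNA and 2.29 to 2.37 with LncND siRNA, and was higher in all 3 LncND siRNA libraries. In the miRNA table it was 2.72 to 2.76 with the control and 1.93 to 1.97 with the mimic, and was lower in both mimic libraries. These means are given as descriptions with no test and of the pair only AMOTL2 was called as higher with LncND siRNA.

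**Figure D4:**
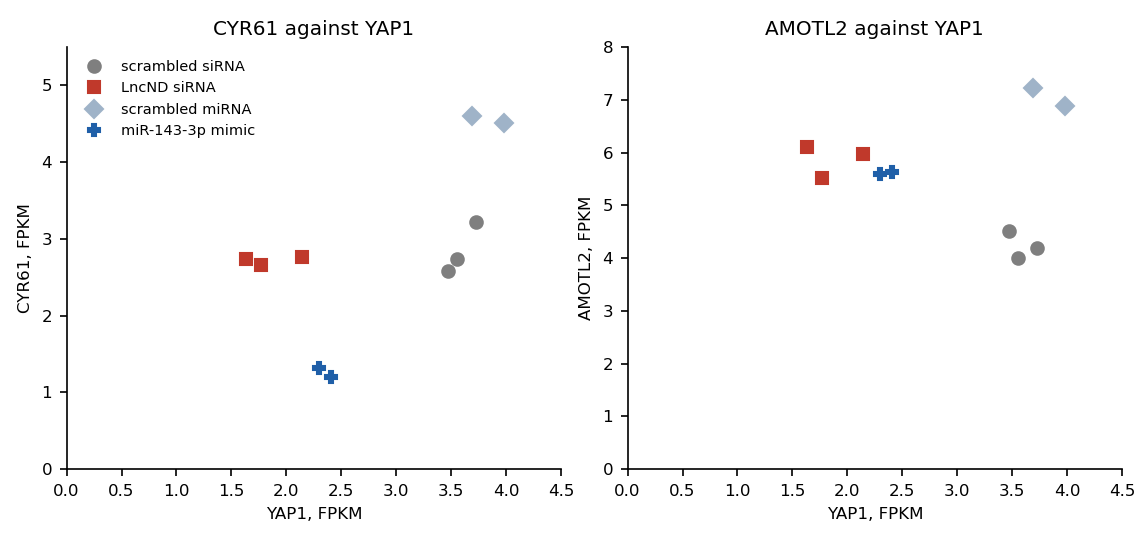
FPKM of CYR61 and of AMOTL2 (vertical axes) against FPKM of YAP1 (horizontal axes) in the 10 libraries, coloured by group. With LncND siRNA, YAP1 lies between 1.63 and 2.14 FPKM while CYR61 stays within the control range and AMOTL2 lies above it. With the mimic, YAP1 is at 2.41 and 2.30 FPKM and both targets lie below their controls.

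The difference between the LncND siRNA and mimic effects passed the test for 6 of the 7 genes, against 60.2% of the 12327 genes tested in both tables. It was positive for 5 (38.1% of all genes) and negative for 1, TEAD1 (22% of all genes). For TEAD1, TEAD4, CYR61 and AMOTL2 it passed under all 17 alternative settings. For TEAD2 (0.17 ± 0.06, limma interaction term, adjusted p = 0.0353) it was lost under 11 of them, and for TEAD3 (0.28 ± 0.10, adjusted p = 0.0331) under 9. Calls in opposite directions were made for TEAD1 and AMOTL2 (2 of 7, against 15.3% of all genes), and calls of a fall in both treatments for YAP1, TEAD2 and TEAD4 (3 of 7, against 16.4%).

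The control groups themselves stood at different levels, which were not tested because the tables were quantified separately. TEAD2 was 1.68-fold higher with scrambled siRNA than with scrambled miRNA. AMOTL2, CYR61 and TEAD4 were 1.67-fold, 1.60-fold and 1.44-fold higher with scrambled miRNA. YAP1 and TEAD1 differed little, by 1.07-fold and 1.02-fold. Those folds are ratios of mean FPKM and are on another scale than what follows. Read on the log2(FPKM + 1) scale, the median log2 difference over 12327 genes was 0.07, and 11.4% differed by at least 1.5-fold. The table, the control agent and its dose cannot be told apart here.

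The upstream Hippo genes were described from a list of 35 kinases, adaptors, scaffolds and TEAD cofactors. Among the 30 tested with LncND siRNA, 16 fell, 5 rose and 9 missed the threshold, with a median log2 fold change of -0.14 against 0.02 for all tested genes. The 21 calls among 30 are close to the 66.9% of all genes called, with 30.3% falling and 36.6% rising. AMOT, which encodes the angiomotin scaffold that binds YAP, fell from 4.53 ± 0.129 to 1.92 ± 0.0226 FPKM (SD, n = 3, log2 fold change -0.92 ± 0.05), the opposite direction to its relative AMOTL2. MOB1A, the activating partner of LATS kinases, fell from 31.9 ± 0.982 to 19.7 ± 0.418 FPKM, and STK4, which encodes the MST1 kinase, from 8.56 ± 0.301 to 5.78 ± 0.245 FPKM. AMOT, MOB1A and STK4 were also called as lower with the mimic (log2 fold changes -0.56, -0.64 and -0.21). Among the 28 tested with the mimic, 11 fell, 7 rose and 10 missed the threshold, with a median of -0.11 against -0.06 for all genes. These 18 calls among 28 are close to the 63.3% of all genes called (38.6% fell and 24.6% rose).

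With the mimic, VGLL4, a cofactor that competes with YAP for TEAD factors, rose from 17.1 to 35.0 FPKM (n = 2, log2 fold change 1.00), whereas it fell with LncND siRNA from 30.1 ± 0.752 to 23.3 ± 0.363 FPKM (SD, n = 3). STRN, a subunit of the STRIPAK phosphatase complex that acts on MST kinases, fell from 5.34 to 2.65 FPKM with the mimic (-0.80). SIK2, a salt-inducible kinase, fell from 11.4 to 6.62 FPKM (-0.70). STRN (-0.40) and SIK2 (-0.205) were called as lower with LncND siRNA too. The related cofactor genes VGLL1, VGLL2 and VGLL3 were at or near 0.001 FPKM, and the kinase gene LATS2 was below 0.1 FPKM in every group mean.

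Beyond the 4 named targets, 20 genes reported elsewhere as YAP or TAZ targets were examined, of which LATS2 and PTPN14 are also in the Hippo list. Among the 13 tested with LncND siRNA, 7 fell, 4 rose and 2 missed the threshold (median -0.21, against 0.02 for all genes, of which 66.9% passed, 30.3% as lower and 36.6% as higher). Among the 12 tested with the mimic, 4 fell, 2 rose and 6 missed the threshold (median -0.06, as for all genes, of which 63.3% passed, 38.6% as lower and 24.6% as higher). GADD45A, a stress gene that p53 also induces, rose from 15.7 ± 1.58 to 33.9 ± 1.31 FPKM with LncND siRNA (SD, n = 3, log2 fold change 1.07) and fell from 26.4 to 14.4 FPKM with the mimic (n = 2, -0.83). BIRC5, which encodes survivin and is expressed in mitosis, fell from 61.4 to 36.6 FPKM with LncND siRNA (-0.74) and from 63.5 to 39.0 FPKM with the mimic (-0.69). IGFBP3, which encodes a binding protein of insulin-like growth factors, fell from 13.7 to 8.93 FPKM with LncND siRNA (-0.57), and FJX1 rose from 3.44 to 6.01 FPKM with the mimic (0.66). IGFBP3 was also called as lower with the mimic (-0.25), and FJX1 as higher with LncND siRNA (0.31). Among those under the filter were AXL, a receptor tyrosine kinase, and MYOF, which encodes myoferlin.

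**Figure D5:**
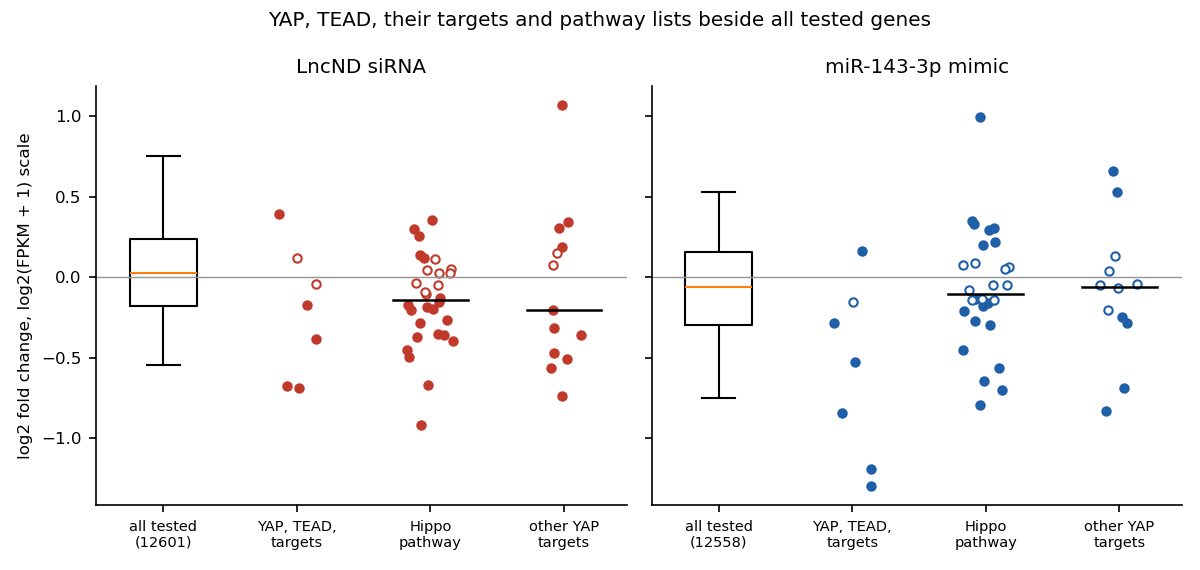
Log2 fold change on the log2(FPKM + 1) scale (vertical axis) of all tested genes, of the 7 tested YAP, TEAD and target genes, of the Hippo pathway list and of the other YAP targets, with LncND siRNA (left) and the mimic (right). The box gives the median and quartiles of all tested genes, with whiskers at the 5th and 95th percentiles. Points are genes, filled where the adjusted p is under 0.05, and black bars are list medians. The highest point of the Hippo list with the mimic is VGLL4 at 1.00, and the highest of the other YAP targets with LncND siRNA is GADD45A at 1.07.

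Some markers of other cells moved with the treatments. The 13 fibroblast and mesenchymal markers, which also mark the mesenchymal type of neuroblastoma cell, summed to 267.7 to 273.1 FPKM with scrambled siRNA, 257.2 to 260.8 with LncND siRNA, 232.6 to 233.1 with scrambled miRNA and 184.9 to 188.2 with the mimic. TWIST1 was the highest member in each group, with means of 141, 108, 106 and 109 FPKM in the same order. The lower sum with the mimic was therefore in other genes, and with LncND siRNA the fall of TWIST1 was offset by the rise of DCN given below. With LncND siRNA 2 of the 8 tested rose and 4 fell (36.6% and 30.3% of all genes), and with the mimic 6 of the 7 tested fell and 1 did not pass (38.6% of all genes fell). Several of these genes were well expressed with scrambled siRNA, among them TWIST1 (141 FPKM), COL3A1 (39.2 FPKM), PDGFRA (28.5 FPKM) and PDGFRB (17.96 FPKM). Others were low there, namely FAP (0.35 FPKM), COL1A2 (0.293 FPKM), CD44 (0.283 FPKM) and POSTN (0.00288 FPKM), and PRRX1 was listed at 0.001 FPKM throughout. With LncND siRNA the mean of CD44 was higher (1.07 FPKM) and those of FAP (0.288 FPKM) and COL1A2 (0.18 FPKM) were lower. These low genes were below the filter and were not tested. DCN, which encodes the matrix proteoglycan decorin, rose from 16.1 to 53.0 FPKM with LncND siRNA and fell from 11.4 to 7.84 FPKM with the mimic. Of the Schwann and glial, blood and epithelial lists, 1 gene each passed the filter with LncND siRNA, and all 3 rose: S100B from 3.06 to 5.92, CD68 from 1.01 to 3.07 and CLDN4 from 0.621 to 2.17 FPKM. The filter takes the mean over both groups, and CLDN4 passed it only through its higher LncND siRNA libraries. Its rise is therefore partly set by the filter and is given as a description. The list sums with LncND siRNA, 6.74 to 7.09 against 3.64 to 3.79, 3.05 to 3.63 against 1.31 to 1.53 and 4.17 to 4.54 against 1.33 to 1.56 FPKM, held these genes as their highest member. The rise of the epithelial sum was not in CLDN4 alone. EPCAM, KRT18 and KRT19 of that list also had higher means with LncND siRNA, as had ERBB3 of the Schwann and glial list. EPCAM reached a mean of at least 1 FPKM with LncND siRNA. These genes were below the filter and were not tested. Some other genes of the lists were at or near 0.001 FPKM in both groups, such as CD3E and KRT5. CD14 had a lower mean with LncND siRNA (0.327 FPKM, against 0.397 FPKM with scrambled siRNA) and was not tested. PTPRC was listed at means of 0.001 FPKM with LncND siRNA and 0.0227 FPKM with scrambled siRNA, which is near the level of single fragments and shows no direction. With the mimic the sums were 3.55 to 3.61 against 4.42 to 5.34, 1.04 to 1.56 against 0.934 to 1.05 and 1.59 to 1.60 against 1.77 to 1.94 FPKM, and S100B fell from 3.92 to 2.84 FPKM. The part of these markers in the changes of YAP, TEAD and target genes was not tested.

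The genes with the pattern most like YAP1 over the 10 libraries, by Euclidean distance in log2(FPKM + 1) centred within each table among 12327 genes, were RMND5A (distance 0.16), RBL1 (0.16) and LUZP1 (0.17). RBL1, which encodes the pocket protein p107, had log2 fold changes of -0.75 with LncND siRNA and -0.64 with the mimic. Those most like CYR61 were SPA17 (0.15), EGR1 (0.15) and ARID3B (0.20). EGR1, an immediate early transcription factor gene, had log2 fold changes of -0.07 and -1.29, beside the -0.04 and -1.30 of CYR61. Such closeness follows from the choice by distance over the same libraries, for RBL1 as for EGR1.

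The mimic carries the sequence of hsa-miR-143-3p, whose mature form in RefSeq (GRCh38.p14 chr5:149428978-149428998, plus strand) is given here because the genes that fell with it can be searched for matches. Its seed, bases 2 to 8, is in capitals.
hsa-miR-143-3p: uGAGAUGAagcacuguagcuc
For each of the 10 genes, the longest 3′ UTR among its transcripts in the basic set of GENCODE was searched. A match of at least 7 bases to this seed was found in CTGF alone, the gene without signal. The CTGF match, at position 53 of the 3′ UTR, pairs with bases 2 to 7 and has an A opposite base 1, and it is printed with its flanks and the match in capitals.
CTGF 3′ UTR site: ctgattcaCATCTCAtttttccg
YAP1, TEAD2, TEAD4, CYR61 and AMOTL2, the 5 genes that fell with the mimic, held no match of this kind in these 3′ UTRs. Of the 11211 tested genes with an annotated 3′ UTR, 24.8% held one.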

How the data were processed

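Poly(A) RNA from 10 libraries of SH-SY5Y cells was analysed as FPKM, which the authors deposited in 2 tables, 1 for the siRNA and 1 for the miRNA libraries. Some entries are status words, not numbers. Per the submitters' processing notes, TopHat 1.0.0 and Cufflinks were used with build hg19. The annotation, the strandedness of quantification and any filtering by the submitters were not given in the sources used here. Since FPKM is relative to each library's total, very abundant transcripts depress the values of other genes.

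Each table had 25275 rows. Rows on unplaced or alternative sequences (1304) were dropped, and for a repeated name the row with the highest mean was kept. Genes averaging 1 FPKM or more in a table were tested as log2(FPKM + 1), which understates changes of low genes, with limma 3.58.1 (mean-variance trend) in R 4.3.3. P-values are 2-sided and were adjusted by Benjamini-Hochberg across every gene tested (threshold 0.05). The difference of the effects was an interaction term in a joint fit of the 10 libraries, where any offset between tables cancels. On simulated data, 94 of 100 genes changed by 0.5 on the log2 scale were recovered in the siRNA design and 75 of 100 in the miRNA design. Depth was estimated from steps between low FPKM values and used in no test.

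The 10 genes, the lists and the tests were chosen with earlier results of these data known. From each list, the 3 called genes with the largest absolute log2 fold change per comparison are named, and for YAP1 and CYR61 the 3 genes nearest in pattern. The genes LATS2, VGLL1 to VGLL3, AXL, MYOF, PRRX1, KRT5, CD3E and TH were picked after their values were seen. So were EPCAM, KRT18, KRT19 and ERBB3, and the other markers named with values. Alternatives were another pseudocount, other filters, other scalings, a replicate block, no trend and leaving out each library.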

Additional observations from a re-analysis of the deposited data

Results flagged for a closer look

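For 6 genes the test of the difference between the treatments passed the threshold, as it did for 60.2% of all 12327 genes tested, so passing does not set these genes apart. The LncND siRNA effect minus the mimic effect, in log2 units, was -0.34 for TEAD1, 0.17 for TEAD2, 0.28 for TEAD3, 0.81 for TEAD4, 1.26 for CYR61 and 0.68 for AMOTL2 (limma interaction term). TEAD1 and AMOTL2 were called in opposite directions in the 2 treatments. TEAD4 fell in both, by different amounts, and CYR61 fell with the mimic and was not called with LncND siRNA. TEAD2 and TEAD3 are the least certain of the 6, since their differences missed the threshold under 11 and 9 of 17 alternative settings.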

How the results depend on the processing

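No called effect of a YAP, TEAD or target gene changed sign under any alternative run. The number that rose ranged from 1 to 2 with LncND siRNA when single libraries were left out (2 without scrambled siRNA replicate 3, where TEAD3 passed) and from 0 to 1 with the mimic (0 by limma without scrambled miRNA replicate 1, where TEAD1 missed the threshold and 1 gene had an unadjusted p under 0.05). The effects of YAP1, TEAD2, TEAD4 and AMOTL2 in both treatments, and of CYR61 with the mimic, passed under every setting run. The deviations of same-numbered libraries had correlations of 0.07, 0.21 and -0.05 for siRNA, and 0.14 for miRNA. Not every library of the siRNA table correlated best with its own number. With 2 libraries per miRNA group, every pair gives the same value with either sign, so these values cannot decide on pairing there. The numbers were not taken to pair the libraries, since the labels do not say that a number marks a shared culture. With the replicate block, 4406 genes rose and 3616 fell with LncND siRNA (4613 and 3818 without it), 3243 rose and 5004 fell with the mimic (3094 and 4853), TEAD3 passed with the mimic (adjusted p = 0.0495) and the TEAD2 difference did not (adjusted p = 0.0588). Calls of a difference, 4699 higher and 2717 lower, became 3732 and 3725 with median-ratio scaling and 3480 and 4157 with quantile normalization, and the cause was not tested. CTGF, ANKRD1 and WWTR1 lie below the filter and were not tested in the main fit, and the values of ANKRD1 cannot be told from a lone fragment. The mimic comparison is limited by its 2 libraries per group.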
